A study of Homo sapiens with 15 samples.

Results

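Raised levels of cytidine deaminase (CDA) in Mia PACA-2 cells were compared with the control across both forms of the enzyme that were overexpressed, the unchanged form (CDA) and the E67Q form (CDA_E67Q). All 15 libraries of the series took part: 5 control, 5 CDA and 5 CDA_E67Q. Each overexpressing library was set against the control library of the same pool number, which gave 10 log2 differences per gene, 2 in each of 5 pools. The genes described first are those whose 10 differences all had the same sign, 64 of the 11273 genes tested (0.568%). Of these, 34 were higher (0.302%) and 30 were lower (0.266%). These genes were chosen by the signs of their own differences, so their differences are given as a description.

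Mia PACA-2 is an established human pancreatic cancer line, grown here in DMEM with serum and given no drug. Control cells, cells overexpressing CDA and cells overexpressing CDA_E67Q shared this background, and messenger RNA was sequenced from each. The labels do not say what the control cells carry, how the enzyme was delivered, or what a pool is. Effects of the enzyme and of carrying a construct therefore cannot be told apart, and since nothing states that pools were separate cultures, p-values below reflect spread that may be technical.

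CDA is an enzyme of pyrimidine salvage. It removes the amino group of cytidine and deoxycytidine, which yields uridine and deoxyuridine, and it inactivates deoxycytidine drugs such as gemcitabine. Its active site holds a zinc ion, and a glutamate there passes protons during the reaction. The E67Q form has glutamine in place of that glutamate, so a difference shared by both forms was seen with and without this change. Both forms of a pool were set against the same control library. An unusual control library alone would therefore also give a shared difference in its pool. Enzyme activity was not measured in these data.

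The codon that E67Q changes is shown because it is the only difference that the labels name between the overexpressed forms. In the GENCODE transcript CDA-201 it is codon 67, in exon 2, at chr1:20604972-20604974 of GRCh38 on the plus strand. The 30 coding bases around it, chr1:20604959-20604988, follow with the codon in capitals. They are the reference sequence, and the construct itself was not analysed here.
CDA codon 67: gggcatctgtgctGAAcggaccgctatcca

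The libraries held an estimated 21.3 to 30.62 M reads, with 12508 to 13090 genes detected in each. Pool numbers were compared across groups before any gene was described. A library's deviation was its log2 level minus the mean of its group, and deviations were correlated over genes, which share library depth and base composition. Libraries of CDA and CDA_E67Q with the same number deviated together in every pool, with Pearson r from 0.33 in pool 2 to 0.90 in pool 5. Control libraries of pools 2, 3 and 5 also resembled their own number, with r from 0.34 to 0.89.

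The control labelled pool 1 did not keep to this pattern, and the control labelled pool 4 resembled both pool numbers. The control labelled pool 1 had r of 0.0094 with the CDA library of pool 1 and 0.55 with that of pool 4. For CDA_E67Q the same values were -0.085 and 0.45. The control labelled pool 4 had r of 0.49 with the CDA library of pool 1 and 0.35 with that of pool 4, and 0.29 and 0.31 for CDA_E67Q. Over genes, the mean differences of pools 1 and 4 correlated at -0.58, whereas the other pool combinations lay between -0.16 and 0.21. Whether labels were exchanged was not tested, and all libraries were used as labelled. A mean over the 5 pools does not depend on which control carries which number, but the count of same-signed genes and the spread between pools do. Values without pools 1 and 4 are therefore given for CDA, LMCD1, XDH, PDE4D and every gene of the 64 whose mean moved by over 1.5 times.

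The CDA transcript was higher in all 10 overexpressing libraries than in any control. Its normalised counts in control pools 1 to 5 were 16.7, 250, 312, 9.91 and 77.2. In the CDA libraries they were 1141, 5222, 2205, 775 and 1429, and in the CDA_E67Q libraries 1357, 1746, 5475, 1676 and 2480. The lowest overexpressing library, CDA pool 4, stood above the highest control, pool 3, so the groups did not overlap. The controls themselves ranged widely: pools 1 and 4 were low and pools 2 and 3 were high. Group means were 133 ± 139 in the control, 2154 ± 1794 with CDA and 2547 ± 1688 with CDA_E67Q (mean ± SD, n = 5). Reads of the cell's own gene and of a construct cannot be told apart here.

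The mean log2 difference of CDA was 4.90 (SE 0.473, 95% confidence interval 3.81 to 5.98), which is 29.8-fold, and its 10 differences ran from 2.79 to 7.26. The difference was 4.71 with CDA and 5.09 with CDA_E67Q, and CDA minus CDA_E67Q was -0.38 with an interval of -1.26 to 0.51. Over all genes the limma adjusted p of CDA was 0.0645, above the threshold of 0.05. The two-sided exact sign-flip permutation test on the 5 pool means gave p = 0.0625, the smallest that 5 pools allow. Without pools 1 and 4 the difference was 3.88 with a limma adjusted p of 0.00378, and with those pools averaged as 1 unit it was 4.52 with 0.0876. With no replicate block, which uses no pool number, the limma adjusted p was 0.0470 for the same 4.90.

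**Figure D1:**
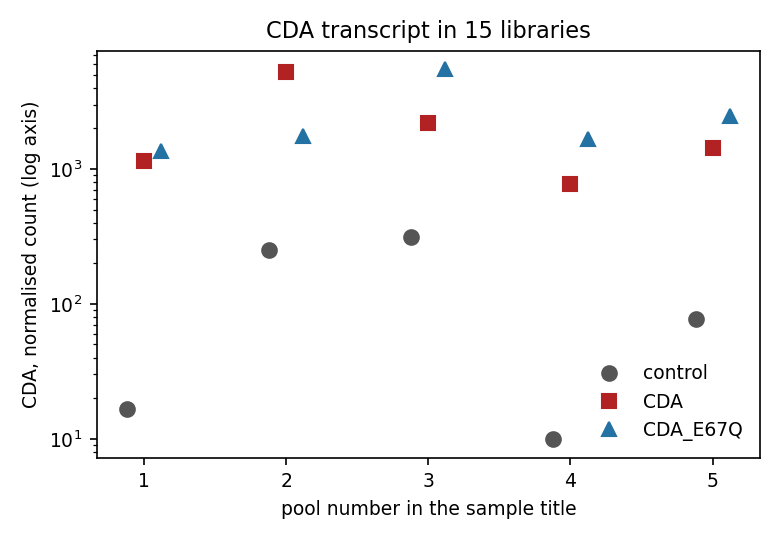
Normalised count of the CDA transcript on a log axis in each of the 15 libraries, by group (control, CDA, CDA_E67Q) and pool number. All 10 overexpressing libraries lie above the 5 controls, which range from 9.91 to 312.

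By limma, no gene passed the threshold when either form was compared with the control: 0 of 11273 (0%). An unadjusted p under 0.05 was found for 262 genes, 158 higher and 104 lower. That is fewer than a share of 0.05 of the 11273 genes, which the cut-off would pass with no differences at all. The mean difference was above 0 for 5886 genes (52.2%) and below 0 for 5387 (47.8%), with a median over all genes of 0.01. Upper-quartile scaling turned this balance round, with 5400 above 0, 5873 below and a median of -0.0071. Without pools 1 and 4 the same test called CDA alone.

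The number of the 10 differences above 0 was spread around the middle over all genes. It was 5 for 2377 genes, 9 for 176 and 10 for 34, and at the low end 1 for 152 genes and 0 for 30. Near the boundary the sign rests on very little: the smallest difference was 0.00040504 in size for NHEJ1, which was counted as lower, and 0.0011469 for ABHD14A, counted as higher. EFHD2 missed the higher set by a difference of -0.0026 and GGACT missed the lower set by 0.00016. Leaving out pools 1 and 4 raised the counts to 613 genes (5.44%) higher and 429 (3.81%) lower in all 6 remaining differences. A count that uses no pool number, all 10 overexpressing libraries above all 5 controls, held 2 genes (0.0177%), CDA and LMCD1. No gene (0%) lay below all controls in all 10.

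Among the 34 higher genes the mean difference ran from 0.14 to 4.90 with a median of 0.33, which is 1.26-fold. Only CDA, LMCD1, XDH and OLFML2B exceeded 1 on the log2 scale. By limma the adjusted p was 0.999 for each of them other than CDA. Their median level over the 15 libraries was a normalised count of 956, near the 897 of all genes tested. Each had at least 1 control at 10 or more, which does not show that it would have passed the filter without the overexpressing libraries. OLFML2B had fewer than 3 such controls, while its CDA libraries were all at 18.6 or more. With a filter of 10 or more in 3 of the 5 controls it dropped out, and 33 higher genes remained.

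LMCD1 encodes a LIM-domain protein that binds GATA transcription factors. Its normalised counts were 10.3, 9.28, 14.4, 10.6 and 11.3 in control pools 1 to 5. The CDA libraries held 16.3, 24.9, 73.2, 41.9 and 23.8, and the CDA_E67Q libraries 21.1, 47.7, 31.4, 37.3 and 33.3. The controls were tightly grouped, and every overexpressing library stood above all of them, though the lowest, CDA pool 1, stood only just above. The mean difference was 1.46 (SE 0.346), 2.76-fold, and 1.57 without pools 1 and 4. At these low counts the pseudocount understates the change.

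XDH encodes xanthine dehydrogenase, which carries out the last steps of purine breakdown to uric acid. Its controls stood at 91.1, 88.5, 587, 265 and 2.50. The values with CDA were 264, 668, 1005, 411 and 5.07, and with CDA_E67Q 159, 244, 1262, 491 and 8.46. Levels differed far more between pools than between groups, so the groups overlapped. Each overexpressing library was above the control of its own number, as the choice of genes required. In pool 5 the counts were below the filter's minimum of 10 in every group, so the differences there, 0.79 and 1.43, are imprecise. The 10 differences ran from 0.63 to 2.90 with a mean of 1.23 (SE 0.238), 2.34-fold. Without pools 1 and 4 the mean was 1.41.

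OLFML2B encodes a secreted olfactomedin-domain protein of the matrix. Its normalised counts were 12 ± 8.57 in the control, 33.2 ± 16.5 with CDA and 21.9 ± 13.1 with CDA_E67Q, with a mean difference of 1.22 (SE 0.389). Its levels overlapped between groups and were close to the filter's minimum of 10.

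Several of the other higher genes are regulators of transcription. FOSL1 encodes FRA-1, a FOS-family subunit of the AP-1 factor. Its controls stood at 2950, 4887, 2563, 3477 and 823. With CDA it stood at 4121, 8920, 4185, 3858 and 943, and with CDA_E67Q at 3264, 7405, 3723, 4041 and 1008. Pool 5 was the lowest and pool 2 the highest in every group, and the mean difference was 0.42 (SE 0.112), 1.34-fold. The homeobox gene GBX2 had a difference of 0.54 (SE 0.169), PAX2, a paired-box factor, 0.41 (0.62 without pools 1 and 4), and the zinc-finger gene ZNF697 0.33. DNTTIP1, a subunit of the MiDAC histone deacetylase complex, stood at 1352 ± 493 in the control, 1743 ± 646 with CDA and 2050 ± 1197 with CDA_E67Q. Its 5 pool means lay close together, from 0.25 to 0.53, around 0.43 (SE 0.0945).

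Signalling genes among the 34 included DTX2, a ubiquitin ligase of the Notch pathway, at 0.44 (SE 0.133). BCL10, an adaptor that passes CARD-protein signals to NF-kB, was at 0.26 (SE 0.116). MAP2K3, a kinase that activates p38, was at 0.27, and GPR3, a receptor that raises cyclic AMP without a ligand, at 0.34 (0.20 without pools 1 and 4). CSK, the kinase that holds SRC-family kinases in check, was at 0.22 and CSNK1A1, a casein kinase that marks beta-catenin for decay, at 0.14. LINGO1, a leucine-rich repeat membrane protein, was at 0.43 (SE 0.179).

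Genes of protein turnover, survival and metabolism were also present. UBE2C, the ubiquitin-conjugating enzyme of the anaphase-promoting complex, was at 0.31 (SE 0.104) and the proteasome lid subunit PSMD7 at 0.20 (SE 0.0863). ATG3, which attaches lipid to LC3 in autophagy, was at 0.28, the ER-phagy receptor CALCOCO1 at 0.35 and the deubiquitinase OTUD1 at 0.21 (0.072 without pools 1 and 4). BCL2L1, which encodes the survival protein BCL-XL, stood at 2237 ± 485 in the control, 2960 ± 904 with CDA and 2829 ± 585 with CDA_E67Q. Its mean difference was 0.36, with pool 3 at 1.05 and the other pools between 0.08 and 0.27. Hexokinase 1 (HK1) was at 0.24 (SE 0.0887).

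Of genes in DNA repair, FANCE, a subunit of the Fanconi anaemia core complex, was at 0.27 (SE 0.130), and SPIDR, a scaffold for recombination repair, at 0.20. FANCE stood at 614, 685, 445, 630 and 395 in the controls, 654, 822, 715, 697 and 413 with CDA, and 705, 771, 710, 692 and 467 with CDA_E67Q. Pool 3 alone had a large difference of 0.68, and its control was low, while the other pools lay between 0.14 and 0.22. Cell-surface and cytoskeletal members were CD151, a tetraspanin that binds integrins, at 0.18, CDC42EP1, a CDC42 effector, at 0.32, and TMOD1, which caps actin filaments, at 0.58. For CDC42EP1 pool 3 was at 0.88 and the other pools between 0.07 and 0.30. The rest were NTMT1 at 0.33, NUTF2 at 0.23, ENTPD6 at 0.16, ZNRD2 at 0.37, ABHD14A at 0.27 and C15orf65 at 0.78, the last with a mean control count of 18.4.

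**Figure D2:**
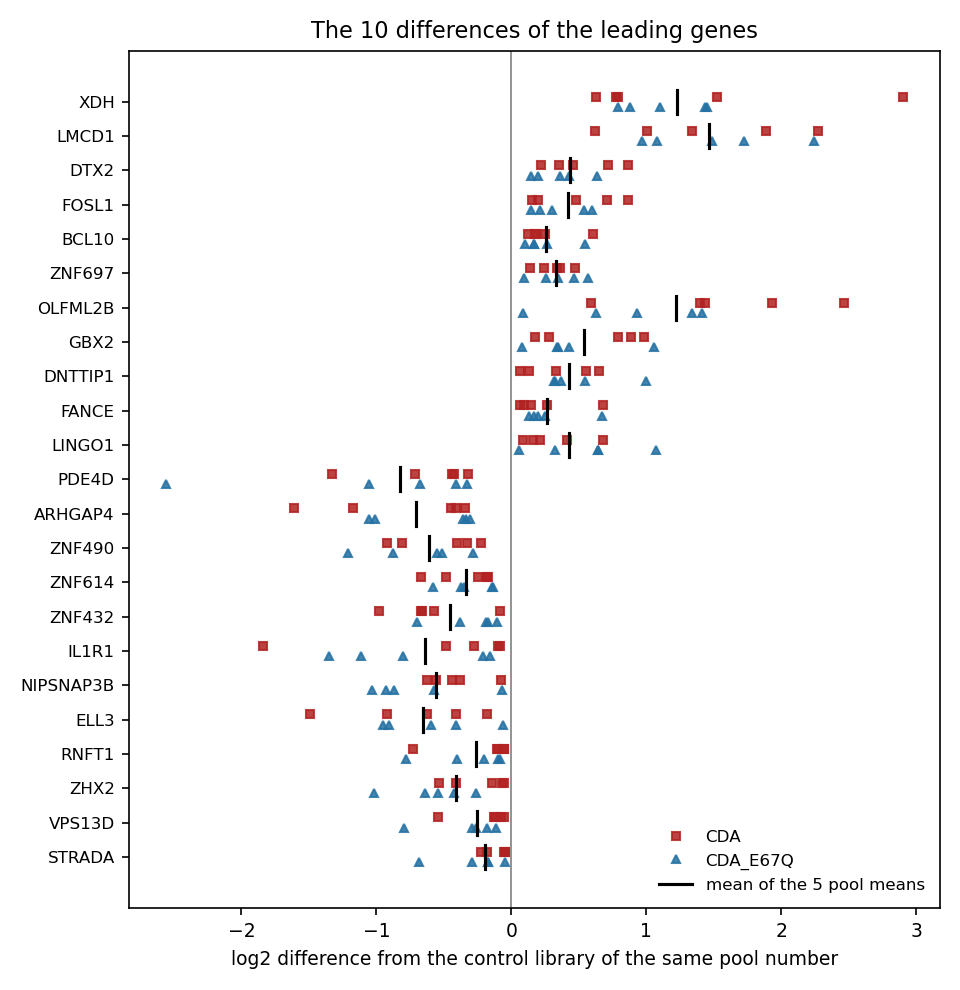
The 10 log2 differences from the same-numbered control (horizontal axis) for 23 of the 64 genes, those other than CDA whose smallest difference was largest in size, with CDA (squares), CDA_E67Q (triangles) and the mean of the 5 pool means (vertical bars). The means of XDH, LMCD1 and OLFML2B lie above 1, and the other means drawn lie between -0.83 and 0.54. Each gene drawn has all its points on the same side of 0 because it was chosen for that.

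The 30 lower genes had mean differences from -0.13 to -0.98 with a median of -0.29, 1.22-fold lower. None exceeded 1 in size. By limma the adjusted p was 0.999 for all 30. Their median level was a normalised count of 417.

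PDE4D encodes a phosphodiesterase that breaks down cyclic AMP. Its controls stood at 392, 366, 272, 257 and 78.6. The CDA libraries held 292, 146, 166, 205 and 57.8, and the CDA_E67Q libraries 188, 61.5, 169, 205 and 58.7. Every overexpressing library lay below the control of its number, as the choice of genes required, and the groups overlapped. The control of pool 5 was low, and CDA pool 1 stood above the controls of pools 3 and 4. The mean difference was -0.83 (SE 0.257), 1.77-fold lower, and pool 2 stood apart at -1.94. Without pools 1 and 4 the mean was -1.02.

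IL1R1, the receptor that transmits interleukin-1 signals, stood at 3154, 1723, 2532, 2366 and 2896 in the controls. With CDA it was 2260, 1423, 706, 2213 and 2739, and with CDA_E67Q 1810, 798, 989, 2056 and 2582. Pool 3 differed by -1.60, while pools 4 and 5 differed by -0.15 and -0.12. The mean was -0.64 (SE 0.206). MALT1, the protease that acts with BCL10, was at -0.27, with 724 ± 99.8 in the control, 645 ± 86.8 with CDA and 560 ± 88.9 with CDA_E67Q.

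ARHGAP4 was at -0.70 (SE 0.261), from 117 ± 143 in the control to 81.9 ± 119 with CDA and 85.8 ± 115 with CDA_E67Q. Pool 5 stood apart in every group, at 372, 294 and 289. STRADA, the pseudokinase that activates LKB1, was at -0.19 (SE 0.107) and ITSN1, an endocytic scaffold, at -0.25. LRIG2, a membrane protein with leucine-rich repeats, was at -0.43, and XXYLT1, which adds xylose to Notch, at -0.29.

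ZNF490, ZNF432 and ZNF614 encode zinc-finger proteins. ZNF490 stood at 114, 173, 99.7, 124 and 192 in the controls, 97.5, 90.9, 75.2, 70.3 and 153 with CDA, and 93.5, 74.2, 67.7, 67.4 and 134 with CDA_E67Q. Its levels overlapped between groups. Each overexpressing library lay below the control of its number, as the choice of genes required, with a mean difference of -0.61 (SE 0.211). ZNF432 was at -0.45 (SE 0.190) and ZNF614 at -0.33 (SE 0.138). These 3 genes are all on chromosome 19, and ZNF432 and ZNF614 are neighbours there. ZHX2, a zinc-finger and homeobox repressor, was at -0.41 (SE 0.197). The TEA-domain factor TEAD2, to which YAP binds, was at -0.28, PBX2, a homeobox cofactor, at -0.17, and ZBTB7B at -0.31. ELL3, an elongation factor for RNA polymerase II, was at -0.66 (SE 0.248), and DDX17, an RNA helicase, at -0.27.

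The other lower genes covered several functions. VPS13D, a lipid-transfer protein, was at -0.26 (SE 0.117) and at -0.16 without pools 1 and 4, with pool 1 at -0.67 and the other pools between -0.12 and -0.21. NHEJ1, which encodes the end-joining factor XLF, was at -0.20, and TEFM, an elongation factor for mitochondrial transcription, at -0.22. MR1, which presents metabolites to T cells, was at -0.13 and DNASE1 at -0.29. TRIM16 and TRIM16L were both at -0.25, but they are near-identical copies whose reads may be split between them. WSCD1 was at -0.98 (SE 0.353), with pool 3 at -2.03 and pools 4 and 5 at -0.25 and -0.22. Its CDA_E67Q library of pool 3 held a count of only 2.55, against 37.6 in the control. NIPSNAP3B was at -0.56, DENND2C at -0.56, ARMCX5 at -0.35, RNFT1 at -0.26 and OSGEPL1 at -0.18.

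**Figure D3:**
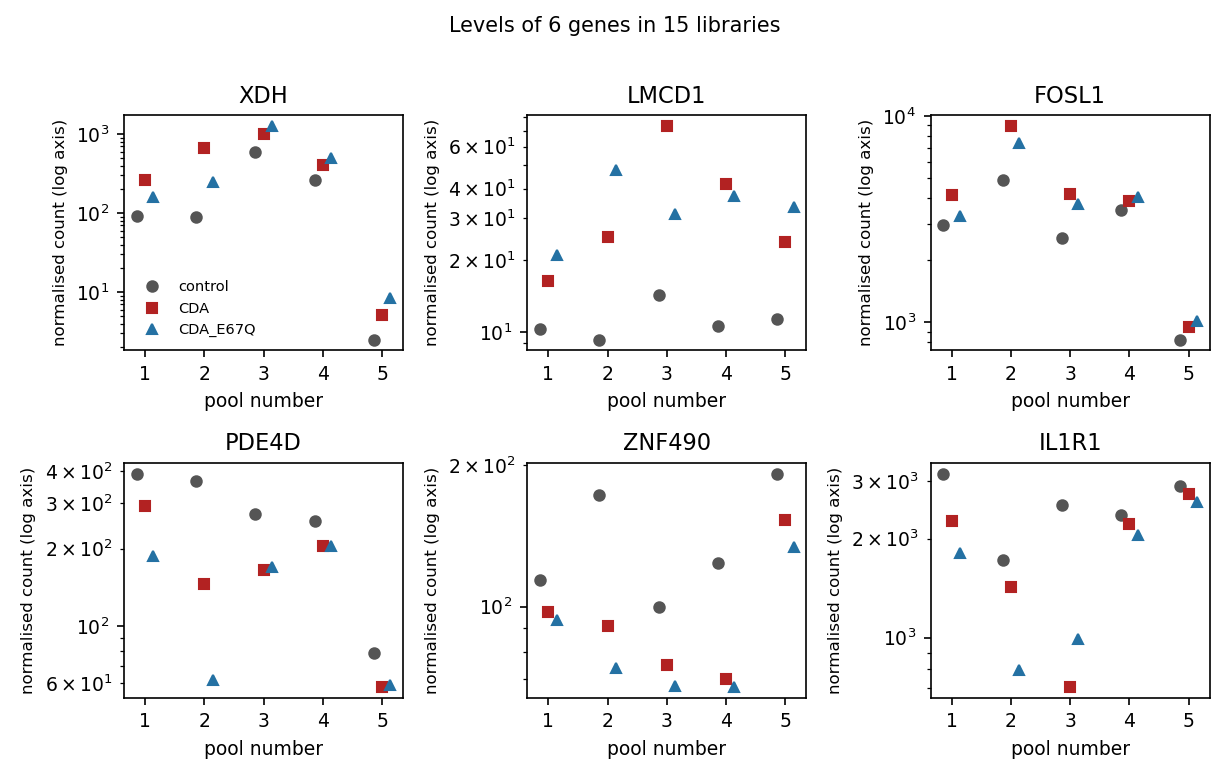
Normalised counts on log axes in the 15 libraries for 6 of the genes named above, by pool number, with control (circles), CDA (squares) and CDA_E67Q (triangles). In every pool both overexpressing libraries lie above the control for XDH, LMCD1 and FOSL1 and below it for PDE4D, ZNF490 and IL1R1. The genes were chosen for this. Levels of different pools overlap between groups for all but LMCD1.

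The same-signed genes did not move evenly over pools. The largest of the 10 differences fell in pool 2 for 14 and in pool 3 for 14 of the 34 higher genes, and for 13 and 12 of the 30 lower genes. The smallest fell in pool 5 for 11 higher and 13 lower genes. Pool 5 also had the smallest differences over all genes: its median size was 0.0964, against 0.236 to 0.342 in the other pools. The 2 differences of a pool share a control library, so they are not independent measurements.

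The forms were then compared with each other. CDA had the larger mean for 16 of the 34 higher genes and for 12 of the 30 lower genes. The direct comparison of CDA with CDA_E67Q called 0 of 11273 genes by limma (0%). An unadjusted p under 0.05 was found for 176, again fewer than a share of 0.05 of the genes tested. The 64 genes were chosen for the same sign with both forms, so their form differences are given without a test. For LMCD1 the form difference was -0.08 (interval -0.94 to 0.79), for XDH 0.19 (-0.53 to 0.92), for FOSL1 0.12 (-0.12 to 0.37) and for PDE4D 0.36 (-0.17 to 0.89). The interval of PDE4D reaches the size of its mean difference from the control.

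Promoter sequence was described as something the sign rule did not use. RefSeq promoters of the GRCh38.p14 build, 250 bases before to 50 after a start, were matched by symbol for 28 of the 34 higher and 26 of the 30 lower genes, and for 9100 of all genes tested. FOSL1 had no entry. Of 4 motifs searched on both strands, TGANTCA, the site of AP-1, was in 5 of the 28 higher genes (17.9%) and 2 of the 26 lower genes (7.69%), against 6.87% of all genes tested. The E-box CACGTG was in 6 higher genes (21.4%) and 0 lower genes, against 12.8%. GGAATG, the TEAD site, was in 4 and 5, against 14.8%, and the NRF1 site was in 1 and 1, against 2.71%. A gene with several starts counted once if any of its promoters held the letters, and motifs that share bases were counted separately. These are matches of letters and were not tested.

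The 250 bases upstream of the start are printed for the 3 leading genes with an entry, on the strand of the gene. Capitals mark the AP-1 letters. They are chr3:8501573-8501822 for LMCD1 on the plus strand, chr2:31414743-31414992 for XDH on the minus strand and chr5:60496287-60496536 for PDE4D on the minus strand. For PDE4D the promoter is the first of several starts.
LMCD1: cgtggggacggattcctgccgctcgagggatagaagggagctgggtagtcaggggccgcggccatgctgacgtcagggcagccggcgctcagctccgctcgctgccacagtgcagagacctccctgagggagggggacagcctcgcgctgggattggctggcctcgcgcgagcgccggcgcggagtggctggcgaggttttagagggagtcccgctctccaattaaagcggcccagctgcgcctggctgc
XDH: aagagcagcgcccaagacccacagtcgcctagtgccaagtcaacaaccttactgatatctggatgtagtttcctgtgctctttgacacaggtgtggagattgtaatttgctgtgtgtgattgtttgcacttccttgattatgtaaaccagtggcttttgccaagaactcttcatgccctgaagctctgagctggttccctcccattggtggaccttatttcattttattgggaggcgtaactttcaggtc
PDE4D: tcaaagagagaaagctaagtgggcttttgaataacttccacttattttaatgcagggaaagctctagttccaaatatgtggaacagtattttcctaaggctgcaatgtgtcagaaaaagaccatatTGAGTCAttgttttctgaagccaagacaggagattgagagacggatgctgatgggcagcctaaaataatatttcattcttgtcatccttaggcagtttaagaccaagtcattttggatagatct

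The upstream part of LMCD1 and of XDH held none of the 4 motifs, and that of PDE4D held TGAGTCA. Windows of 61 bases show the AP-1 letters in 3 of the higher genes, MAP2K3 (chr17:21284643-21284703, plus strand), CSNK1A1 (chr5:149550375-149550435, minus strand) and LINGO1 (chr15:77820369-77820429, minus strand).
MAP2K3: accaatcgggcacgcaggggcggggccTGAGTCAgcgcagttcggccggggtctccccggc
CSNK1A1: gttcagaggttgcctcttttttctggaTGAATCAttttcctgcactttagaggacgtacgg
LINGO1: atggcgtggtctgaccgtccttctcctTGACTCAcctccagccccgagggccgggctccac

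Genes of the enzyme's own pathway were described next, from lists with counts and medians and no test. Of 32 pyrimidine metabolism genes tested, 21 had a mean difference above 0 and 11 below, and CDA was the only member with the same sign in all 10. The median was 0.10, beside 0.01 for all genes tested. Thymidine kinase TK1, which phosphorylates thymidine, had 0.27 and was higher in 7 of 10, thymidylate synthase TYMS had 0.20, and DPYD, which breaks down pyrimidine bases, had -0.35. These 3 were chosen after their values were seen. Of 10 genes for nucleoside transport and drug efflux, 3 were above 0 and 7 below. The nucleoside carrier SLC29A1 stood at 2158 ± 279, 2281 ± 418 and 2450 ± 514 in the control, CDA and CDA_E67Q, a mean difference of 0.12 (SE 0.112).

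The study's title concerns replicative stress, so replication and repair genes were read in the same way. Of 48 DNA replication genes, 37 were above 0 and 11 below, with none of the same sign in all 10 and a median of 0.06. By pool the median was -0.12, 0.47, 0.05, 0.01 and 0.03, so pool 2 carried most of it. CDT1, which licenses replication origins, was 2994, 3081, 2277, 2936 and 3014 in the controls, 3068, 4715, 4168, 3867 and 2993 with CDA, and 2943, 3654, 3887, 3102 and 3191 with CDA_E67Q. Its pools 2 and 3 were higher with both forms, pools 1 and 5 were close to their controls, and the mean was 0.31 (SE 0.133). Of 41 genes of the replication stress response, 25 were above 0, FANCE alone in all 10, with a median of 0.03. Of 25 p53 target genes, 9 were above 0 and 16 below, with a median of -0.04. Among these GADD45A had 0.59 (SE 0.152) and was higher in 8 of 10.

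Proteasome subunits, which form the machine that degrades ubiquitin-tagged proteins, were almost uniform in the sign of the mean. Of 31 proteasome subunits, 30 had a mean above 0, PSMC6 being the other, and the median was 0.11, but only PSMD7 was higher in all 10. With upper-quartile scaling 27 of the 31 were above 0. The pool medians were -0.21, 0.36, 0.17, 0.13 and 0.08, so pool 1 went the other way. PSMD7 itself stood at 4212 ± 1045 in the control, 4861 ± 1159 with CDA and 4750 ± 1140 with CDA_E67Q. Of 39 genes of G2/M and mitosis 34 were above 0 (median 0.11), with UBE2C in all 10. Of 30 genes of MYC and ribosome biogenesis 23 were above 0 (median 0.10), and of 47 of oxidative phosphorylation 35 were above 0 (median 0.05). Each of these lists also had a negative median in pool 1. Chaperones and heat shock genes had 19 of 26 above 0 (median 0.07).

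The inflammatory lists had larger medians than these. Of 19 NF-kB and cytokine genes, 14 were above 0, with a median of 0.22 and none of the same sign in all 10. NFKB2, the precursor of the p52 subunit, was at 549, 1508, 1259, 641 and 4293 in the controls, 802, 1747, 3699, 947 and 3995 with CDA, and 827, 4429, 2194, 795 and 4310 with CDA_E67Q. Only CDA pool 5 lay below its control, and the mean was 0.60 (SE 0.170). RELB, the partner of p52, had 0.76 (SE 0.222) and was higher in 9 of 10, again with pool 5 near 0. The pool medians of the NF-kB and cytokine list were 0.26, 0.39, 0.31, 0.19 and -0.02, and its median was 0.32 without pools 1 and 4. Of 36 interferon-stimulated genes 25 were above 0 (median 0.21). Their pool medians were 0.16, -0.02, 0.41, 0.32 and -0.16, and the median fell to 0.07 without pools 1 and 4. IFIT3 had a mean of 0.60 (SE 0.239) with pools 1 and 3 at 1.40 and 1.01 and pool 5 at -0.34. By limma the adjusted p of NFKB2, RELB and IFIT3 was 0.999.

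Cytoskeleton and matrix lists, which hold structural and secreted proteins, came next. Of 47 genes of the actin cytoskeleton and adhesion, 37 were above 0 (median 0.16), with LMCD1 in all 10. Of 38 genes of the YAP, SRF and TGF-beta responses, 20 were above 0 and 18 below (median 0.02), with FOSL1 in all 10. Of 28 collagens and matrix genes 18 were above 0 (median 0.10). By pool the median was 0.27, -0.22, 0.50, -0.0070 and -0.0098, so only pools 1 and 3 were above 0. COL3A1 was 11.2, 35.1, 894, 181 and 141 in the controls, 115, 16.6, 2820, 320 and 201 with CDA, and 89.1, 144, 3933, 1144 and 186 with CDA_E67Q. It was higher in 9 of 10, with CDA pool 2 the exception, and the mean of 1.53 (SE 0.374) became 0.95 without pools 1 and 4. COL13A1 had 1.61 (SE 0.497), with pools 2 and 3 at 2.94 and 3.26 and pool 5 at -0.30.

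All 5 kallikreins tested, a cluster of secreted proteases on chromosome 19, had a mean below 0, with a median of -1.25 and none lower in all 10. Earlier results of these data were known when this list was made. KLK6 stood at 8827, 8215, 12659, 7432 and 6680 in the controls, 6477, 738, 1547, 5555 and 7147 with CDA, and 6568, 7081, 1436, 5162 and 6072 with CDA_E67Q. CDA pools 2 and 3 and CDA_E67Q pool 3 were far below their controls, and CDA pool 5 was above its own. The mean was -1.17 (SE 0.407, limma adjusted p 0.999). The list's pool medians were 0.18, -2.97, -2.46, -0.78 and -0.18. The hypoxia and glycolysis list had 21 of 30 above 0 (median 0.07) with HK1 in all 10, the integrated stress and unfolded protein response list 13 of 29 (median -0.03), and cholesterol and fatty acid synthesis 14 of 28.

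The labels give a pancreatic cancer line, and the ductal markers KRT19 and SOX9 were present in all libraries, with 4706 ± 2055 and 5833 ± 968 in the control, while CFTR was at 0 throughout. Summed markers of other cell types overlapped between the groups. The summed level of 14 immune cell markers was 451 to 2517 in the control, 562 to 2301 with CDA and 666 to 2415 with CDA_E67Q. The medians of these sums were 506, 1338 and 1587, higher with both forms, which was not tested. For 13 neuroendocrine markers the medians of the sums were 9396, 4100 and 6241, lower with both forms. For 13 mesenchymal markers they were 176030, 219130 and 214550, and for the epithelial markers 47440, 39779 and 52862. These were not tested either. Sums with CDA_E67Q are on the normalised scale of its own table. CD3D and MS4A1 were at 0 in every library. The fibroblast markers DCN, LUM, FAP and PDPN were at 0 in all controls, but other members of that list were expressed. The summed level of the 12 fibroblast markers was 7066 to 40022 in the control, 18299 to 36351 with CDA and 21293 to 39544 with CDA_E67Q. These sums overlapped between groups. The pancreatic acinar enzymes PRSS1, CELA3A, AMY2A and PNLIP were at 0 in all 15 libraries. LYZ, a lysozyme counted as an immune marker, was 11.2, 21.8, 3.92, 311 and 11.4 in the controls, 79.9, 870, 5.93, 728 and 5.81 with CDA, and 32.6, 433, 6.87, 1200 and 13.9 with CDA_E67Q. It was higher in 9 of 10, with CDA pool 5 below its control, and its mean of 1.74 (SE 0.647) had a limma adjusted p of 0.999. In bulk libraries fewer cells of a type and less RNA per cell cannot be told apart, and the part of other cells in these values was not tested.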

How the data were processed

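For the 15 Mia PACA-2 libraries, 1 µg of total RNA was enriched for mRNA on poly-T beads, per the labels' protocols. The submitters' processing notes name bcl2fastq, FastQC, Trimmomatic, Salmon and the GRCh38 build, with no versions. The authors deposited 2 tables of 16887 genes, with control and CDA or control and CDA_E67Q libraries. Values in the deposited tables are log2 values with a floor of 6.65 or 6.17 and have the form of variance-stabilised counts, though no label or header states how they were made. Normalised counts were recovered as (V - F)²/V, where V and F are the antilogs of a value and of the floor. Whole reads could not be recovered: of values under 12, 12.19 to 38.98% per library lay within 0.05 of a whole read. Read totals are estimates from the spacing of low values, with no counting interval. Strand assignment is not stated, so overlapping and antisense genes are uncertain.

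The tables were normalised separately, so each difference was taken within a table, on the log2(normalised count + 1) scale, which understates changes of low genes, overexpressing library minus control of the same pool number. Levels of all libraries were put on the scale of the CDA table through the shared controls, whose values differed by no more than 2.15e-08 log2 after 1 factor per gene and library. Tested genes reached a normalised count of 10 in 5 or more of the 10 libraries of each table, and 2 gene names turned into dates were left out. The 2 differences of a pool were averaged and the 5 pool means tested against 0 in R 4.3.3 by limma 3.58.1 (trend on mean expression, 2-sided) at a Benjamini-Hochberg adjusted p of 0.05. The same model was run on CDA minus CDA_E67Q. For CDA an exact sign-flip permutation test was added. The script was tested on simulated data.

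The members and gene lists were chosen with earlier results of these data known. Named were CDA, genes past the threshold, the 12 per direction with the largest smallest difference among genes with 10 differences of the same sign, and from each list its members with 10 such differences or else the 2 with the smallest p. Other members of the 64 are named to account for them. The alternatives were 26 set first and 3 added after the data were seen: leaving out pools 1 and 4, averaging them as 1 unit, and comparing levels with no pool number. Same-numbered libraries were checked for pairing by the correlation of their deviations, and the control of pool 1 fell below 0.1 with its own number, so the numbers were not taken as pairing the samples beyond the subtraction that defines the comparison. Gene positions are from GENCODE on GRCh38. Tables and plots were prepared in Python 3.11.15 using pandas 2.3.3, numpy 2.4.6 and matplotlib 3.10.9.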

Additional observations from a re-analysis of the deposited data

Results flagged for a closer look

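In 27 sets of 5 values, the pool means of the leading genes and the levels of CDA in each group, 6 had a highest or lowest value whose gap to the nearest of the others was over 0.71 of the whole range. Chance flags about 1 in 20 sets of normally distributed values. That rate does not hold here, since the genes were chosen by the signs of these differences and the CDA levels were compared as counts. The number flagged is therefore not read as an excess. The pool 2 difference of XDH was 2.18, with the other pools at 0.76 to 1.16. FANCE differed by 0.68 in pool 3, against 0.14 to 0.22 elsewhere. The pool 2 difference of PDE4D was -1.94, beyond the other pools at -0.33 to -0.74. RNFT1 stood at -0.76 in pool 3 (-0.755 before rounding), with -0.07 to -0.25 in the others. VPS13D was at -0.67 in pool 1 and between -0.12 and -0.21 in the other pools. The CDA transcript level in CDA_E67Q pool 3 was 5475, and the other CDA_E67Q libraries held 1357 to 2480. Pools 2 and 3 hold 5 of these 6 values.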

How the results depend on the processing

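The limits are 5 pools, 1 control library per pool shared by both forms, deposited values without read counts, a control of pool 1 that resembled pool 4, and a control of pool 4 that resembled both. Of the 62 named genes other than CDA, none passed the threshold under any of 28 alternatives (smallest limma adjusted p 0.580), and 1718 of their values kept direction and side. The 6 that reversed were SCG2 at -0.60 and SOX9 at -0.091 without replicate 1, SOX9 at -0.014 without CDA replicate 2 and -0.034 without replicates 1 and 4, CLDN4 at 0.020 without replicate 2, and SLC29A3 at 0.027 without replicate 3. With 1 replicate or library left out these genes ranged from -0.60 to 1.89 (SCG2), -0.091 to 0.14 (SOX9), -1.03 to 0.020 (CLDN4) and -0.27 to 0.027 (SLC29A3).

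CDA passed in 9 alternatives, with 1 gene called in each, and its limma adjusted p ran from 1.73e-05 to 0.632 over all of them. These were a pseudocount of 5 (4.73), the deposited values (3.22), no replicate block (4.90), a replicate block with all 15 libraries in 1 fit (4.90), leaving out replicates 1 and 4 (3.88), and leaving out any of CDA replicates 3 and 5 and CDA_E67Q replicates 2 and 4. With 1 replicate or library left out the difference of CDA ranged from 4.45 to 5.25 (limma adjusted p 0.0320 to 0.349) and the number of genes called from 0 to 1. The number with an unadjusted p under 0.05 was 262, 51 with no replicate block, 383 with the block in 1 fit, 700 without replicates 1 and 4 and 540 with those pools averaged. It was 950 without replicate 1, 455 without replicate 4, 126 without replicate 3, 113 without replicate 2 and 221 without replicate 5. Among these counts only 950 and 700 exceed a share of 0.05 of the genes tested.

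The number of genes higher in all differences ranged from 37 to 301, and lower from 33 to 220, with 1 replicate or library left out. By construction fewer differences had to match. The highest values came without replicate 1, and 188 and 123 without replicate 4. Without replicates 1 and 4 they were 613 and 429, and with no pool number 2 and 0. Median-centred differences gave 30 higher and 38 lower, and upper-quartile scaling 29 and 33. Averaging pools 1 and 4, and the fits over 15 libraries, give no count of same-signed genes. At 21.3 to 30.62 M estimated reads, values near or below a normalised count of 10, such as LMCD1 in the controls and XDH in pool 5, are the least precise.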

Other observations

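Zinc-finger genes with ZNF symbols were looked at as a group after 3 of them were seen among the 30 lower genes, so the choice followed the values and no test was made. Of 352 such genes tested, 243 (69.0%) had a mean difference below 0, against 47.1% of the 10921 other genes. Their median difference was -0.09, beside 0.01 for the others. ZNF432, ZNF490 and ZNF614 were lower in all 10 differences, 0.852% of the ZNF genes against 0.247% of the others, and ZNF697 was higher in all 10. The medians by pool were 0.13, -0.25, -0.30, -0.06 and -0.03, so pools 2 and 3 carried most of the difference and pool 1 had the other sign.

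Some genes outside the same-signed set had large means carried by a few pools, and they too were picked after their values were seen. CCN2, which encodes a matricellular protein of the TGF-beta and YAP responses, had a mean log2 difference of 2.31 (SE 0.598) and was higher in 9 of 10. MARCKS, an actin-linking substrate of protein kinase C, had 2.18 (SE 0.526) and TGFB2, a ligand of TGF-beta receptors, 2.24 (SE 0.930), each higher in 8 of 10. ID2, an inhibitor of helix-loop-helix factors, had -0.86 (SE 0.253) and was lower in 9 of 10. By limma none of these had an adjusted p below the threshold.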
